A study of Homo sapiens with 10 samples.

Results

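PVT1, DLEU2, TUG1, CRNDE, DANCR, ZFAS1, TP53TG1 and RPPH1 are non-coding RNA genes with described functions, and each was found by its symbol in the gene table of this study. All 8 had 1 row of their own, with 1 symbol and a completed test, among 241080 rows in all and 18271 tested rows that carry a symbol. They were measured in HEK293, an established adherent line from human embryonic kidney, from which nuclei were obtained with detergent in 3 biological replicates and separated into 3 samples of soluble nuclear extract (SNE) and 3 of the chromatin pellet extract (CPE). Neither group carries a treatment or a genetic change in the labels, and the libraries were stranded total RNA. A further 2 CPE samples with DRB, an inhibitor of transcription elongation, and 2 mock-treated CPE samples belong to the series and were not analysed here. The comparison asked how each RNA divides between the chromatin pellet and the soluble extract.

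Long non-coding RNAs (lncRNAs) are transcribed and mostly spliced like messenger RNAs but act as RNA. Some stay where they are made and act on nearby genes, some are released and exported, and some serve mainly as the precursor of smaller RNAs kept in their introns. A chromatin pellet holds nascent transcripts still attached to RNA polymerase as well as RNAs tethered after their release. PVT1 lies next to MYC and is gained together with it in many cancers. DLEU2 carries the miR-15a and miR-16-1 hairpins and lies in a chromosome 13 region often lost in chronic lymphocytic leukaemia. TUG1, CRNDE and DANCR are spliced lncRNAs studied in proliferation and differentiation, ZFAS1 and DANCR host small nucleolar RNAs, TP53TG1 is a lncRNA studied in cancer cells, and RPPH1 is the catalytic RNA of ribonuclease P, which trims the 5′ ends of transfer RNA precursors.

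Sequences are shown for the small RNAs that these loci hold and for the most abundant member with the interval beside it. The ZFAS1 introns hold 3 box C/D small nucleolar RNAs, which guide methylation of ribosomal RNA, and capitals mark the C box (TGATGA) and the D box (CTGA).
SNORD12: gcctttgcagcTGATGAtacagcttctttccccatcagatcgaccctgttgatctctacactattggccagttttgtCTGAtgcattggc
SNORD12B: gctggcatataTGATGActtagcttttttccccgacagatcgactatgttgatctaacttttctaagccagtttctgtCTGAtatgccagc
SNORD12C: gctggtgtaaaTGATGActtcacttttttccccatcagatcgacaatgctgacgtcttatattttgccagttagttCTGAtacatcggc

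These copies, of 90, 91 and 89 bases in GENCODE 29, were 69.8% to 74.2% identical to each other in global alignments. Their longest shared run is cagatcgac, of 9 bases. DANCR holds SNORA26, a box H/ACA RNA, the class that guides pseudouridylation, and capitals mark its ACA box, which stands 3 bases from the 3′ end.
SNORA26: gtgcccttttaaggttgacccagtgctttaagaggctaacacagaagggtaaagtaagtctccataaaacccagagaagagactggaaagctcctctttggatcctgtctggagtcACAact

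The microRNAs of the DLEU2 intron share their seed (bases 2 to 8, in capitals), which is why they are shown together. Both come from RefSeq on GRCh38.p14, minus strand, at chr13:50049167-50049188 and chr13:50049027-50049048.
hsa-miR-15a-5p: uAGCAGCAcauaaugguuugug
hsa-miR-16-5p: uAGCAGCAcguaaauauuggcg

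RPPH1 is the shortest RNA of the group and by far the most abundant. Of its 333 bases in GENCODE 29 the first 120 are given, with the first 23 in capitals, because those bases also open the second sequence, on the opposite strand. That second sequence is the 250 bases before the RefSeq start of PARP2, plus strand, chr14:20343385-20343634 on GRCh38.p14.
RPPH1: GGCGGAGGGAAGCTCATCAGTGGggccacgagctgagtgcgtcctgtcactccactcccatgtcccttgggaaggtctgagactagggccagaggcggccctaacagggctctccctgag
RPPH1-PARP2 interval: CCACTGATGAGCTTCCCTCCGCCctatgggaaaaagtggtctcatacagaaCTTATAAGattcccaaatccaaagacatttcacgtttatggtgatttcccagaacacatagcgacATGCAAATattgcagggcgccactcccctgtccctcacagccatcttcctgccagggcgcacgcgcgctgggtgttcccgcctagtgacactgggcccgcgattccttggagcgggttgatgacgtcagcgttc

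In that interval the capitals mark the 23 bases of RPPH1, a TATA-like stretch and an octamer. The motifs were searched on both strands as TTATAAG and ATGCAAAT, which do not overlap each other, and TTATAAG matches both strands in overlapping positions. TTATAAG was found in 626 and ATGCAAAT in 623 of 35116 RefSeq windows of 300 bases (1.78% and 1.77%), and 17 windows held both (0.0484%). Between the first base of RPPH1 and the TATA-like stretch lie 28 bases, and the starts of RPPH1 and PARP2 are 228 bases apart. The 7 RefSeq windows found for 6 of the 8 lncRNAs, PVT1 and RPPH1 having none, held neither motif. With motifs this rare over all windows, their absence from 7 says little about the members.

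Levels are given as FPKM, fragments scaled to transcript length and to the size of the library, which allows genes of different length to be compared within a group. The files hold 1 FPKM per group, computed by the authors over the replicates, so no spread between replicates, no SD and no sequencing depth was known. FPKM is a share of a library, so more of an RNA in a fraction and less of all other RNA cannot be told apart, nor, in bulk samples, can fewer cells and less RNA per cell. A gene was called where the authors' own test (Cuffdiff) was completed and its q was at most 0.05. The label HEK293 was checked against 8 genes known from the line: VIM, KRT8, KRT18, LIN28B and HMGA2 had SNE FPKM values from 32.3 to 1801, while PAX2, NEFL and NEFM stayed at 0.303 or less. Of 12 genes with a row that mark other cell types, none exceeded an FPKM of 1.45, and CD3E, HBB and HBG1 were listed at 0 in both groups. Of 7 genes listed to check the fractions, only MALAT1 and NEAT1 were tested, and both were called higher in CPE. RN7SK, RN7SL1, MT-ND1, MT-CO1 and MT-ATP6 exceeded Cuffdiff's data limit and have no usable value. Cytoplasmic RNA carried into SNE was therefore not checked, and a higher SNE value does not by itself place an RNA in the nucleus.

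The members divided between soluble and chromatin RNA, and 4 of the 8 were called, or 3 of 7 without RPPH1. CRNDE, DANCR, ZFAS1 and RPPH1 were higher in SNE by the authors' deposited table, although CRNDE and ZFAS1 fall slightly on the chromatin side when ratios are centred on all rows with a symbol. No member was called higher in CPE, while PVT1 and DLEU2 had the larger value there without a call. TUG1 and TP53TG1 had the larger value in SNE, also without a call. Among all tested rows with a symbol, 41.2% were called, 39.3% higher in SNE and 1.83% higher in CPE, so 4 of 8 is close to that background. Of the 579 tested rows whose symbol is a GENCODE 29 lncRNA, 14.7% were called, 8.12% higher in SNE and 6.56% higher in CPE. Most of those rows were low, and among the 163 that reached an FPKM of 1 in both groups, as all 8 members do, 27% were called, 16.6% higher in SNE and 10.4% higher in CPE.

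**Figure D1:**
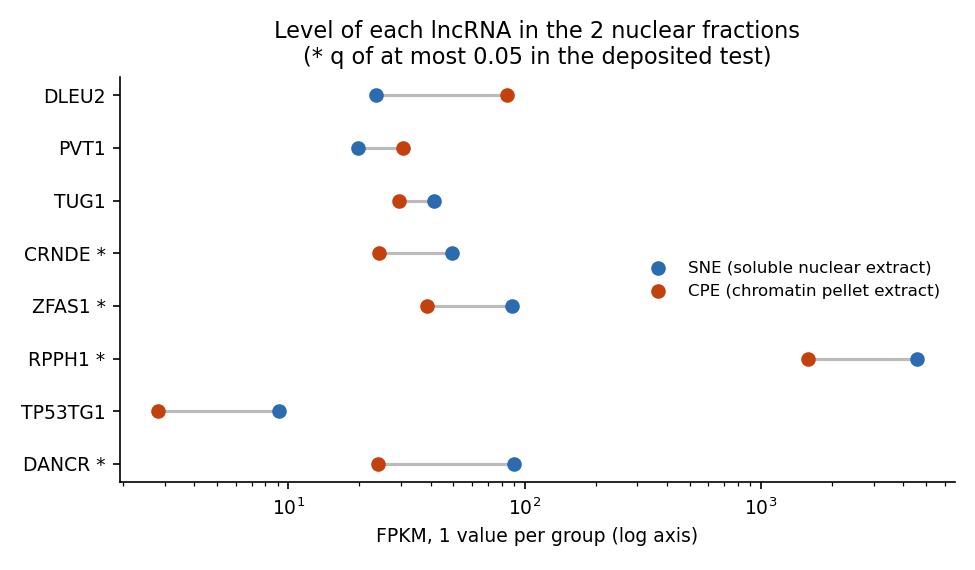
FPKM of each lncRNA in SNE (blue) and CPE (orange), 1 value per group on a log axis, ordered by ratio, with an asterisk for q of at most 0.05 in the deposited test. RPPH1 stands far to the right at 4568 and 1583, DLEU2 and PVT1 alone have the larger value in CPE, and CRNDE and ZFAS1 change sides when ratios are centred.

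In the soluble extract the order of levels was RPPH1, DANCR, ZFAS1, CRNDE, TUG1, DLEU2, PVT1 and TP53TG1. In the chromatin pellet it was RPPH1, DLEU2, ZFAS1, PVT1, TUG1, CRNDE, DANCR and TP53TG1. DANCR moved from the second place to the seventh, and DLEU2 from the sixth to the second. Without a spread over samples, neighbours in these orders such as DANCR and ZFAS1 in SNE (90.3 and 88.4) or CRNDE and DANCR in CPE (24.2 and 23.9) cannot be separated. Leaving RPPH1 aside, levels spanned 9.85-fold in SNE and 30.1-fold in CPE.

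The authors' deposited ratios of the 8 had a median log2 value of -1.11, close to the median of -1.24 over all tested rows with a symbol. It was below the median of -0.49 over the 163 lncRNA rows with an FPKM of at least 1 in both groups. Zero on this scale is set by how the authors scaled the libraries, and subtracting the median of -1.24 shifts every ratio up by the same amount. Centred in this way, without a new test, DLEU2 stood at 3.09, PVT1 at 1.88, TUG1 at 0.75, CRNDE at 0.22 and ZFAS1 at 0.05 on the log2 scale. RPPH1, TP53TG1 and DANCR stayed on the soluble side at -0.29, -0.47 and -0.67. The order of the members is the same under either zero, from DLEU2 at the chromatin end to DANCR at the soluble end. Among the 11388 rows with a symbol that reached an FPKM of 1 in both groups, the ratio of DLEU2 lay at percentile 97.6, PVT1 at 93.6, TUG1 at 77.9 and DANCR at 24.2. Among the 163 lncRNA rows, the percentiles of the same 4 were 90.8, 76.7, 49.7 and 7.98, TUG1 being the middle row itself.

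**Figure D2:**
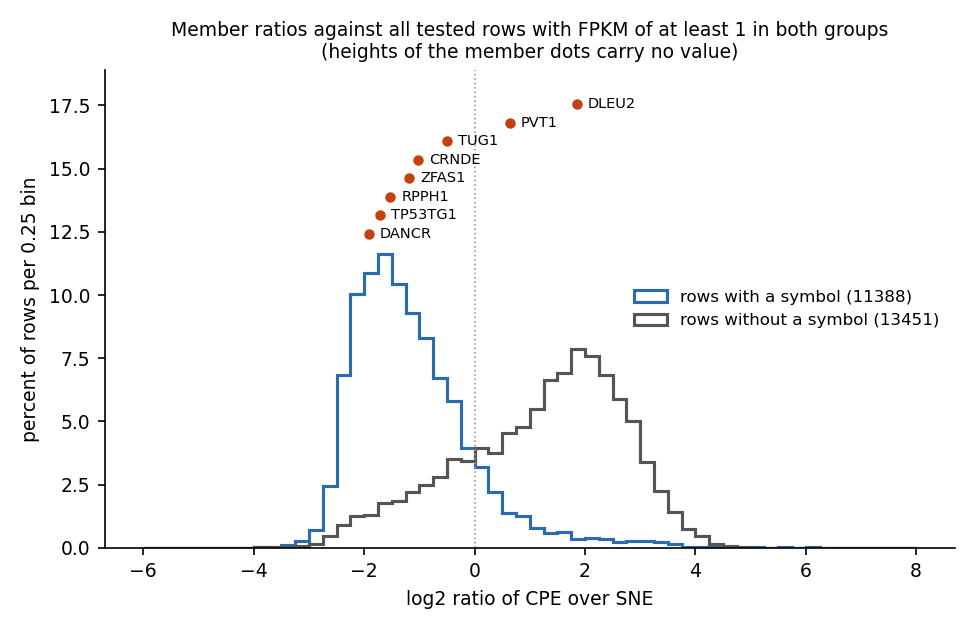
Log2 ratio of CPE over SNE for the 8 lncRNAs (orange dots, heights without meaning) above histograms of 11388 rows with a symbol (blue) and 13451 rows without (grey), in percent of rows per bin, all reaching an FPKM of 1 in both groups. Members spread from -1.91 to 1.85, and the medians of the histograms are -1.33 and 1.45; centring moves CRNDE, ZFAS1 and TUG1 to the other side of 0.

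DLEU2 had the highest chromatin ratio of the group. Its FPKM was 23.5 in SNE and 84.6 in CPE and it was not called (log2 ratio 1.85, p = 0.0192, q = 0.119 in the authors' deposited table). That value is 3.60-fold higher in chromatin, and it is the only member apart from PVT1 on that side before centring. The row lies in a region of 855.5 kb on hg19 (chromosome 13, 50567747 to 51423221) with 13 other rows that carry a symbol. DLEU1, a neighbouring lncRNA that starts 128 bases from a DLEU2 start on the opposite strand in RefSeq, had 15.8 in SNE and 25.5 in CPE and was not called in the authors' deposited table (log2 ratio 0.69, q = 0.537). A second DLEU1 row had 0.0544 and 1.39, also without a call (log2 ratio 4.68, q = 0.569 in the authors' deposited table).

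The listed protein-coding genes around DLEU2 had lower ratios than DLEU2, and only KPNA3 among them was called. KCNRG and TRIM13, a potassium channel regulator and a ubiquitin ligase that share a merged row overlapping DLEU2, had 23.4 in SNE and 10.8 in CPE without a call (log2 ratio -1.12, q = 0.445 in the authors' deposited table). The importin KPNA3 was 3.33-fold higher in SNE (q = 0.000706 in the authors' deposited table, the smallest q it holds). SPRYD7 and RNASEH2B, a subunit of ribonuclease H2, were not called, and the authors' deposited table gives log2 ratios of -1.47 and -0.86. DLEU2 and TRIM13 are antisense to each other, and the labels do not say whether counting used strand. The microRNA row MIR16-1, whose mature sequence is printed above, was listed at 0 in both groups and not tested, as was the row MIR3613. DLEU7, further along the region, stayed at 0.00764 or less.

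PVT1 had 19.6 in SNE and 30.6 in CPE and was not called (log2 ratio 0.64, q = 0.51 in the authors' deposited table). Its region spans 306.7 kb on hg19 (chromosome 8, 128806779 to 129113499). MYC, the transcription factor gene beside it, went the other way, with 59.6 in SNE and 13.6 in CPE, a 4.39-fold excess in SNE (q = 0.000706 in the authors' deposited table). FAM49B, further downstream, was 3.64-fold higher in SNE (q = 0.00134 in the authors' deposited table). The difference between PVT1 and MYC was not tested, since the files give no values per sample. Of the microRNAs annotated in PVT1, MIR1205 was listed at 0 in both groups, and MIR1207 at 0 in SNE and 10.1 in CPE, each without a test. CASC11, a lncRNA on the other side of MYC, was at 0.0333 in SNE and 0.0167 in CPE and not tested. RNU1-106P, a U1 pseudogene inside PVT1, had 5.51 and 4.91 without a call (q = 0.774 in the authors' deposited table).

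PVT1 could also be followed by isoform, because the FPKM of its 30 rows in the isoform table sum to its gene values in both groups. Of the 30, 9 were listed at 0 in both groups and 11 reached an FPKM of 1 in either. Isoform 20, counted in the order of the table, had 7.86 in SNE and 12.8 in CPE, which is 40.1% and 41.7% of the PVT1 total. This leading isoform thus took about the same share of PVT1 in both fractions, although it was left untested for low data. Isoform 23 went from 2.21 in SNE to 1.49 in CPE, a share of 11.3% and 4.87%. Isoform 26 had 0.0851 and 1.46, a share of 0.434% and 4.77%. Neither of these was tested. Of 21 isoforms above 0, 12 were higher in CPE and 9 in SNE. Cuffdiff tested 7 isoforms, of which 0 were called and 0 had an unadjusted p under 0.05 in the authors' deposited table (q from 0.435 to 0.975). The files do not say which exons an isoform holds.

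**Figure D3:**
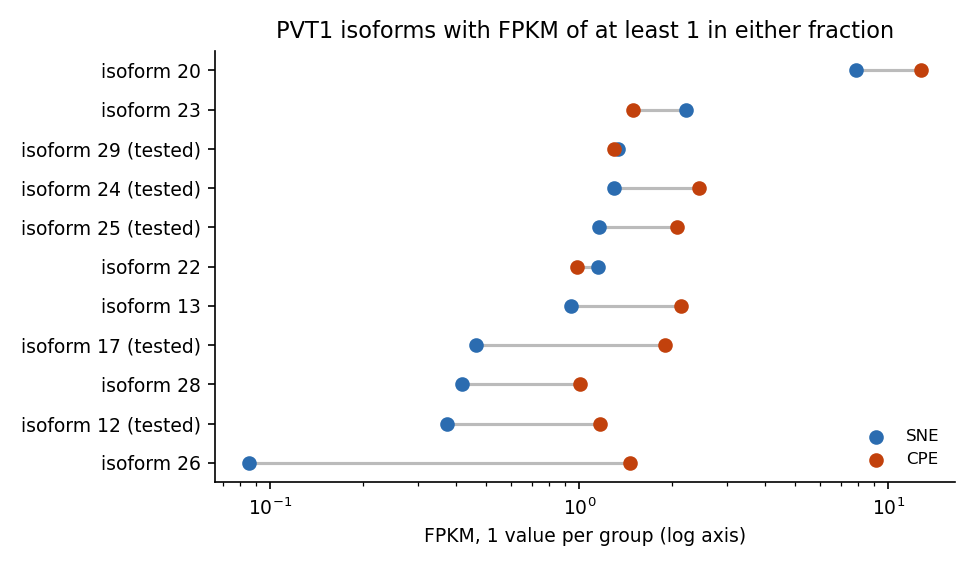
FPKM in SNE (blue) and CPE (orange) of the 11 PVT1 isoforms with an FPKM of at least 1 in either group, on a log axis, with those that were tested marked. Isoform 20 stands apart at 7.86 and 12.8, and the other isoforms lie at or below 2.43.

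TUG1 had the deposited ratio closest to 0, a place it loses when ratios are centred. It had 41.3 in SNE and 29.4 in CPE, 1.41-fold higher in SNE without a call (log2 ratio -0.49, q = 0.491 in the authors' deposited table), and centring puts it on the chromatin side at 0.75. Its region on hg19 (chromosome 22, 31365765 to 31377151) spans 11.4 kb. MORC2, which encodes a chromatin-remodelling ATPase and starts 491 bases away on the opposite strand in RefSeq, had 15.9 and 5.88 and was higher in SNE (2.70-fold, q = 0.00251 in the authors' deposited table). SMTN, which encodes the actin-binding protein smoothelin, was also higher in SNE (2.55-fold, q = 0.00134 in the authors' deposited table). The TUG1 ratio exceeded those of both neighbours, a difference that could not be tested.

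CRNDE had 49.3 in SNE and 24.2 in CPE, 2.04-fold higher in SNE (log2 ratio -1.03, q = 0.0208 in the authors' deposited table). This call is lost at a q of at most 0.01, and its centred ratio is 0.22. The region spans 17.0 kb of chromosome 16 (54946126 to 54963101 on hg19) and holds no other gene with a symbol. The Iroquois homeobox genes IRX5 and IRX3, developmental transcription factors of the same gene cluster, had 2.29 and 6.23 in SNE against 0.511 and 1.35 in CPE. Both were called toward SNE in the authors' deposited table, IRX5 by 4.48-fold (q = 0.000706) and IRX3 by 4.62-fold (q = 0.00989). IRX6 lay below an FPKM of 1 in both groups and was called higher in SNE as well (q = 0.0328 in the authors' deposited table). All 3 IRX ratios were lower than that of CRNDE.

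DANCR was the member most shifted to the soluble extract. It had 90.3 in SNE and 23.9 in CPE, 3.77-fold higher in SNE (log2 ratio -1.91, q = 0.000706 in the authors' deposited table). Its region on hg19 (chromosome 4, 53578597 to 53588406) spans 9.81 kb and also holds SNORA26 and MIR4449. SNORA26, printed above, had 108.7 in SNE and 1073 in CPE, a value 9.87-fold higher in chromatin that was left untested for low data. MIR4449 had 563.3 and 725.9, untested for the same reason. Reads of an intronic small RNA, of the host's intron and of the spliced host cannot be separated with these files, and FPKM of RNAs this short is less reliable than that of long ones.

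The genes near DANCR did not all share its direction. ERVMER34-1, an endogenous retroviral envelope gene, was higher in SNE (2.52-fold, q = 0.000706 in the authors' deposited table). USP46, a deubiquitinase gene, had 15.4 and 6.44 without a call (q = 0.065 in the authors' deposited table). USP46-AS1, the lncRNA beside it, had 1.25 in SNE and 2.20 in CPE and was called higher in CPE (1.75-fold, q = 0.000706 in the authors' deposited table). RASL11B, a small GTPase gene, had 1.73 and 1.03 without a call.

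ZFAS1 had 88.4 in SNE and 38.8 in CPE, 2.28-fold higher in SNE (log2 ratio -1.19, q = 0.00134 in the authors' deposited table), with a centred ratio of 0.05 on the other side. Its region spans 69.9 kb of chromosome 20 (47835884 to 47905797 on hg19) and includes its protein-coding neighbours. ZNFX1, whose promoter region ZFAS1 shares as an antisense transcript, had 3.18 and 1.33 and was higher in SNE (2.40-fold, q = 0.0476 in the authors' deposited table). DDX27, a helicase of ribosome biogenesis, was higher in SNE too (3.23-fold, q = 0.000706 in the authors' deposited table).

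The small nucleolar RNAs inside ZFAS1 had higher ratios than their host, a difference that was not tested. SNORD12 had 244.2 in SNE and 1949 in CPE (log2 ratio 3.00, q = 0.485 in the authors' deposited table). SNORD12B had 241.7 and 861.9 (1.83, q = 0.493), and SNORD12C had 188.6 and 995.3 (2.40, q = 0.493), on the same log2 scale of the authors' deposited table. None of the 3 was called despite ratios of 3.57-fold to 7.98-fold, so the data do not separate their levels between the fractions at this q. In SNE each was 2.13-fold to 2.76-fold above ZFAS1 itself, and in CPE 22.2-fold to 50.3-fold above it, on the FPKM scale.

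TP53TG1 was the least abundant member. It had 9.16 in SNE and 2.81 in CPE, a 3.27-fold higher value in SNE that was not called (log2 ratio -1.71, p = 0.0366, q = 0.196 in the authors' deposited table). Its region on hg19 (chromosome 7, 86954541 to 86974831) spans 20.3 kb. CROT, which encodes the peroxisomal carnitine octanoyltransferase and starts 172 bases away on the opposite strand in RefSeq, had 8.13 and 7.39 and was not called (log2 ratio -0.14, q = 0.659 in the authors' deposited table). TP53TG1 and CROT thus had like levels in SNE and a 2.63-fold difference in CPE, on the FPKM scale. TMEM243, DMTF1, a cyclin D-binding transcription factor gene, and the transporter gene ABCB4 were not called, at -0.42, 0.85 and 0.40 on the log2 scale of the authors' deposited table.

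RPPH1 had 4568 in SNE and 1583 in CPE, 2.89-fold higher in SNE (log2 ratio -1.53, q = 0.000706 in the authors' deposited table). It exceeded the next member 50.6-fold in SNE and 18.7-fold in CPE. Its region spans 17.3 kb of chromosome 14 (20810551 to 20827829 on hg19). PARP2, the DNA repair gene that faces RPPH1 across the interval printed above, had 27.7 and 17.1 and was not called (log2 ratio -0.70, q = 0.597 in the authors' deposited table). TEP1, a telomerase-associated protein gene, had 5.05 and 5.22 without a call (q = 0.902 in the authors' deposited table). CCNB1IP1 had 49.1 and 24.1 without a call (q = 0.0532), and NDRG2 was called at 2.32-fold toward SNE (q = 0.0324), both in the authors' deposited table.

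The messenger RNAs for the protein subunits that RPPH1 shares its holoenzyme with were nearly all higher in the soluble extract. Of 11 ribonuclease P and MRP protein genes, 10 were called higher in SNE, 0 toward CPE and RPP25 was not called. Of all tested rows with a symbol, 39.3% were called higher in SNE. Many of those rows were low. Among rows with an FPKM of at least 1 in both groups, as 10 of the 11 have, 5960 of 11388 were called higher in SNE. The row that counts for RPP21 is merged with TRIM39, so its call cannot be given to RPP21 alone. The median log2 ratio of the 11 was -1.80 in the authors' deposited table. Beside it stand -1.24 over all tested rows with a symbol and -1.33 over those with an FPKM of at least 1 in both groups. POP4 and POP5, the most abundant, had 198.4 and 82.9 in SNE and by the authors' deposited table exceeded CPE there 3.63-fold (q = 0.000706) and 2.43-fold (q = 0.00134). The largest ratios among the called genes of this list in the authors' deposited table were those of POP7, 5.16-fold, and RPP25L, 4.31-fold, both toward SNE at q = 0.000706. RMRP, the sister RNA in ribonuclease MRP, exceeded Cuffdiff's data limit in its region, so its listed values are failed estimates and were not used.

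**Figure D4:**
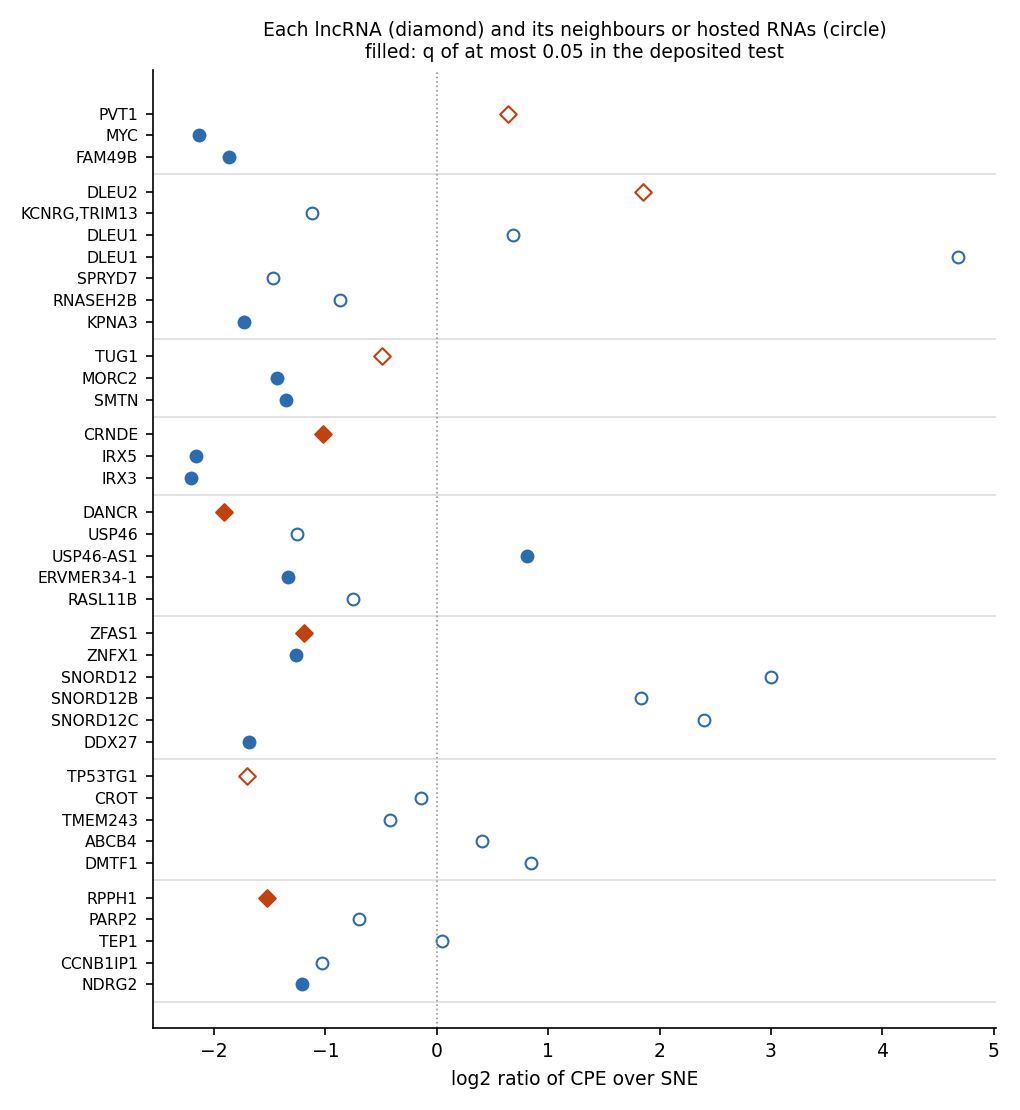
Log2 ratio of CPE over SNE of each lncRNA (diamond) and of its listed neighbours or hosted RNAs with a test and an FPKM of at least 1 in either group (circles), filled where q was at most 0.05 in the deposited test. USP46-AS1 is the only filled point above 0, and the SNORD12 copies lie between 1.83 and 3.00 as open circles; centring shifts every point up by the same amount.

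Of the 44 listed neighbouring, partner and hosted genes, 41 had a row and 30 rows were tested. Of these 12 were called toward SNE, 1 toward CPE, and 17 were not called (12 of 30 beside 39.3% of all tested rows with a symbol). Their median log2 ratio was -1.07 in the authors' deposited table.

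Every member region also held rows without a gene symbol, which the table names only by number. There were 219 in the 8 regions, 218 of them tested, and all but 18 lay in the regions of PVT1 (91) and DLEU2 (110). Of those tested, 19 were higher in CPE and 0 in SNE (8.72% in CPE), close to the 9.45% and 0.63% of all 174660 tested rows without a symbol. By region, 7 of 90 were called at PVT1, 10 of 110 at DLEU2, 1 of 2 at DANCR and the only row at CRNDE. At CRNDE that row had 1.79 in SNE and 5.37 in CPE, 3.01-fold higher in CPE (q = 0.000706 in the authors' deposited table), while CRNDE itself was higher in SNE before centring. At DANCR the called row had 0.467 and 3.08, 6.59-fold higher in CPE (q = 0.000706 in the authors' deposited table), again opposite to the named RNA.

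The unnamed rows of the long regions were low and shifted to chromatin. At PVT1 their median FPKM was 0.152 in SNE and 1.41 in CPE, with a median log2 ratio of 3.31 over finite values in the authors' deposited table. At DLEU2 the medians were 0.0576 and 0.708 with a median log2 ratio of 3.60. The median over all tested unnamed rows was 3.21, so both regions lie near it. The highest unnamed row in CPE had 7.32 at PVT1 and 14.9 at DLEU2, neither called, and the called row highest in CPE at DLEU2 had 0.895 in SNE and 10.8 in CPE (12.1-fold, q = 0.000706 in the authors' deposited table). At TUG1 the only unnamed row had 6.60 and 8.77 without a call (q = 0.0821 in the authors' deposited table). No unnamed row exceeded its member in CPE: the named RNA was 2.69-fold (TP53TG1) to 556.8-fold (RPPH1) above the highest of them.

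In all 8 regions the median ratio of the unnamed rows was above the ratio of the named lncRNA. The same held for 96.0% of 13944 tested rows with 1 symbol that share a region with such rows, and for 89.5% of 493 lncRNA rows, so it is not particular to these genes. The labels do not say how the unnamed rows were defined, or whether some are introns or extensions of the named RNA.

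**Figure D5:**
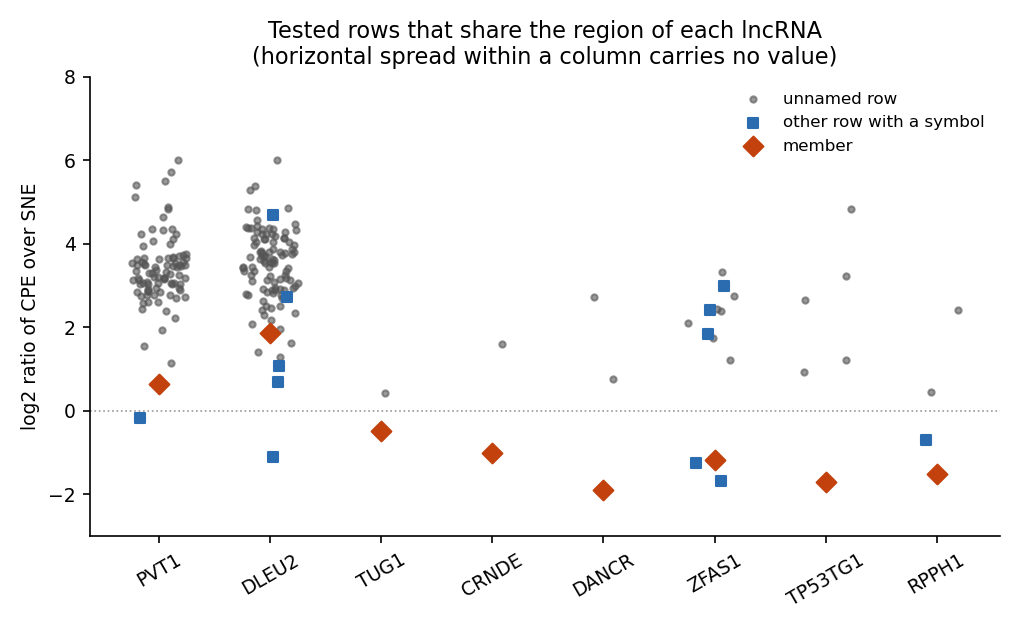
Log2 ratio of CPE over SNE of every tested row with a finite ratio in the region of each lncRNA: the member (orange diamond), other rows with a symbol (blue squares) and unnamed rows (grey dots, horizontal spread without meaning). All 8 members lie below the median of their unnamed rows. Only in the DLEU2 region do unnamed rows fall below the member, 3 of the 110 tested. Tested unnamed rows with an SNE of 0, 10 at DLEU2 and 1 at PVT1, have no finite ratio and are not drawn. CRNDE, ZFAS1 and TUG1 rise above 0 when ratios are centred.

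Across the 8 genes the ratio tended to rise with gene span and longest transcript, as a description over members measured in the same pooled libraries. The trend was not tested, and the relation over other rows was not computed, so it cannot be called particular to these genes. Spearman's rho was 0.69 against the GENCODE 29 gene span and 0.79 against the longest annotated transcript (n = 8), and 0.14 against the median transcript length. TUG1 and DANCR, with spans of 10.2 and 7.95 kb, had the third highest and the lowest ratio. PVT1 and DLEU2, with spans of 306.7 and 143.2 kb, had the highest ratios, and RPPH1, an unspliced gene of 0.333 kb, the third lowest. CRNDE has a GENCODE 29 span of 84.0 kb, wider than its region in these files, so its place in that order depends on the annotation. Promoter windows of the members had a GC content of 58.7% to 80% with a median of 67.7%, beside a median of 58.7% over all windows. Among the 6 members with a RefSeq window, an opposite-strand gene started within 1000 bases upstream of DLEU2, TUG1 and TP53TG1. RPPH1 had no window of its own, and its distance to PARP2 was taken from the PARP2 window. PVT1 had no window and could not be searched. The share of such pairs over all genes was not computed. Overlapping head-to-head pairs such as ZFAS1 and ZNFX1 were not counted. In the authors' deposited table the member's log2 ratio was above that of its partner for TUG1 and below it for TP53TG1 and RPPH1, while DLEU2 lay above the more abundant DLEU1 row and below the other.

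Other well-known lncRNAs lay on both sides of the members. Of 39 listed names 33 had a row and 25 rows were tested. Some genes are listed under 2 names, such as LINC00152 and CYTOR, so a name without a row is not always a missing gene. The authors' deposited table held 10 of these called toward CPE, 5 toward SNE and 10 without a call, around a median log2 ratio of -0.06. Beside these counts stand 6.56% of all tested lncRNA rows called toward CPE and 8.12% toward SNE, and 1.83% and 39.3% of all tested rows with a symbol. Of the 25 rows, 21 reached an FPKM of 1 in both groups. Among all lncRNA rows at that level, 10.4% were called toward CPE and 16.6% toward SNE. The list was chosen with earlier results known and includes several small nucleolar RNA hosts called toward CPE. At the chromatin end stood the small nucleolar RNA host SNHG15 (11.4-fold) and the paraspeckle RNA NEAT1 (10.8-fold), beyond DLEU2, among rows that reached an FPKM of 1 in both groups. As at DANCR, reads of a host's intronic small RNAs and of its spliced RNA cannot be separated, which limits the SNHG15 value. The imprinted antisense RNA KCNQ1OT1, below that level at 0.0301 in SNE and 0.545 in CPE, had a higher ratio still (18.1-fold, q = 0.000706 in the authors' deposited table). At the soluble end of the same rows stood LINC00152 (4.09-fold) and HOXA11-AS (3.37-fold), close to DANCR, and SNHG15, NEAT1, LINC00152 and HOXA11-AS were all called in the authors' deposited table. Whether the members differ from that list was not tested.

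The genes whose levels lay closest to each member were sought over the 2 group values only, as the distance in log2 FPKM among 16140 rows with 1 symbol. The nearest rows were protein-coding genes for PVT1 (REV1 and MYO9A), TUG1 (RANBP2 and HAGHL), CRNDE (CCNB1IP1 and CDC40), DANCR (SSR3 and PEPD), ZFAS1 (EIF3A and SS18) and TP53TG1 (FKBP5 and RAB38), at distances of 0.13 or less. SSR3 had 90.3 in SNE and 24.0 in CPE, almost the values of DANCR. DLEU2 had the small nucleolar RNA rows snoU109 and U3 as its nearest, at 0.22 and 0.23. RPPH1 had no close match, the ribosomal protein genes RPL37A and RPS19 being nearest at 1.52 and 1.53.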

How the data were processed

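Per the file headers the gene table comes from Cuffdiff, and the submitters' processing notes name TopHat2, Cuffdiff and hg19. Versions, annotation, library scaling and the use of strand are not given in the sources used here. What the authors deposited is 1 FPKM value per group, a log2 ratio of CPE over SNE, and a p-value with its q-value (smallest p 5e-05, smallest q 0.000706). A call was a completed test with q of at most 0.05 over the 192931 tested rows. Without values per sample no test, SD, interval or depth could be computed. The isoform table, also deposited as FPKM, was used only for PVT1, whose isoforms sum to its gene value. The members, the neighbour, partner and comparison lists and the rule for named genes were chosen with earlier results of these data known. Named were all members, tested neighbours of the lists that reached an FPKM of 1 in either group, the 2 most abundant and the 2 called ones with the largest change among ribonuclease P genes, the 2 highest and 2 lowest ratios among other lncRNAs with an FPKM of at least 1 in both groups, and the 2 nearest rows by level; RNU1-106P, MIR3613, CASC11, DLEU7, IRX6, SNORA26, MIR4449, MIR1205, MIR1207, MIR16-1, RPP25, RPP21 and KCNQ1OT1 fall outside the rule and were named after their values were seen. A list of protein genes described as acting with the members is not reported here. A small RNA whose symbol occurs elsewhere was matched by region. Sequences came from RefSeq (GRCh38.p14) and GENCODE 29. RefSeq windows were found for 6 members. Counting and likeness functions were tested on simulated data. Python 3.11.15, pandas 2.3.3 and scipy 1.17.1 were used.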

Additional observations from a re-analysis of the deposited data

How the results depend on the processing

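Centring ratios on the median of tested rows with a symbol (-1.24) left 2 of the 4 called members on the soluble side and put 2 on the chromatin side in place of 0, as counts of sign without a new test: CRNDE reversed to 0.22 and ZFAS1 to 0.0522. TUG1, not called, moved to 0.75. At a q of at most 0.01, 3 members were called higher in SNE, CRNDE being lost, and 3 of the other lncRNAs were called higher in SNE in place of 5. The count of 0 members called higher in CPE could not rise at the stricter q, and no looser one was tried. DLEU2 had an unadjusted p under 0.05. Pseudocounts of 0.1 and 1 add the same amount to both groups, so they cannot change a member's direction, only the size of its ratio. Of 48 values computed under the alternatives, 42 kept their direction or stayed within 1.5 times the count first given. Many of the 42 could not have changed: the pseudocount ratios, and member counts under filters that all members or all called members already pass. They are therefore no measure of stability. The other 6 are the values above that crossed 0 (CRNDE, ZFAS1 and TUG1) or the counts that moved further. No paired analysis was possible because the tables hold 1 pooled value per group, and for the same reason leaving out a replicate was not run. Depth is unknown, so the members not called cannot be read as equal in both fractions.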

Other observations

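The isoform table matched the gene table only in part, which is why isoforms are described for PVT1 alone. Among tested genes of the reference annotation whose identifier occurs in both tables, isoform values summed to the gene value within 1% in both groups for 2360 of 2361 genes on chromosomes 7, 8, 9, X and Y, and for 1 of 586 genes on chromosomes 1, 10, 11 and 12. Among tested loci without a symbol the sums matched for 587 of 169774. The other 7 lncRNAs had no isoform row under their identifier.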
